A study of Mus musculus with 10 samples.

Results

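The 10 genes described here, H19, Igf2, Ascl2, Cd81, Tssc4, Kcnq1, Kcnq1ot1, Cdkn1c, Slc22a18 and Phlda2, lie in neighbouring imprinted domains of mouse chromosome 7, the H19-Igf2 domain (2 genes) and the Kcnq1 domain (8 genes). They were chosen by gene symbol, and 11 of the 62976 array features carry one of these symbols, 1 for each gene and 2 for Kcnq1ot1. Of these, 10 features, for 9 genes, passed a filter on dim features and were tested; Phlda2 was too dim on every array.

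Expression was measured in total RNA of mouse cells in culture, labelled with Cy3, on 10 Agilent arrays. The 2 control arrays held mouse embryonic fibroblasts (MEFs) without transgenes for the factors named below, cultured for 2 weeks. The cells on the other 8 arrays, induced embryonic Sertoli-like cells (ieSCs), carried transgenes for 5 factors (Wt1, Sox9, Gata4, Nr5a1 and Dmrt1) and had been kept without doxycycline (dox) for 2 weeks. For 4 of these arrays the ieSCs were made from MEFs, and for the other 4 from female tail tip fibroblasts (TTFs). All groups share the congenic R26-M2rtTA strain, homozygous for a dox-dependent activator at the Rosa26 locus. Sertoli cells support the germ cells of the testis. The arrays carry 5 names with 2 arrays each (a and b): the MEFs, and names 1 and 2 of each kind of ieSC. The labels do not say whether the arrays of a name came from separate cultures, whether a name is a clone, or whether names 1 and 2 came from separate animals, so the p-values rest on a spread that may be technical in part. All MEF values rest on 1 name, and unconverted TTFs were not analysed here.

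Imprinted genes are expressed from the copy of one parent. In the H19-Igf2 domain, a control region between the genes is methylated on the paternal copy; on the unmethylated maternal copy it binds CTCF, which keeps shared enhancers from Igf2, so that the maternal copy gives the noncoding RNA H19 and the paternal copy gives Igf2, a fetal growth factor. In the Kcnq1 domain, the long noncoding RNA Kcnq1ot1 is transcribed from the paternal copy out of a control region within Kcnq1, and its presence goes with silence of the surrounding genes on that copy, among them the cell cycle inhibitor Cdkn1c. Both domains act on growth of the embryo and placenta.

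H19 and Igf2 are also the hosts of microRNAs, and these are shown because the arrays measured their host transcripts and not the microRNAs themselves. From RefSeq (build GRCm38.p6), miR-675 lies within the H19 span and miR-483 within the Igf2 span, all on the minus strand. The mature sequences follow 5′ to 3′, with the seed, bases 2 to 8, in capitals.
miR-675-5p, chr7:142577112-142577133: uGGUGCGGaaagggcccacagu
miR-675-3p, chr7:142577078-142577099: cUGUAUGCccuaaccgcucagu
miR-483-5p, chr7:142654968-142654989: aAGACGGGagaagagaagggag
miR-483-3p, chr7:142654932-142654952: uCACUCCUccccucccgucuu
No seed is shared among the 4.

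The RefSeq promoter table held 10 promoters for 7 of the 10 genes, 4 of them for Igf2. For 3 promoters the 250 bases before the start are shown, on the strand of the gene: Igf2, which differed most between the kinds of ieSC, Kcnq1ot1, whose start lies in the control region of its domain, and Cd81, a gene of the same domain that rose. Capitals mark GGGCGG, the GC box, in Igf2 and Cd81, and CCAAT in Kcnq1ot1.
Igf2, chr7:142657497-142657746, minus strand: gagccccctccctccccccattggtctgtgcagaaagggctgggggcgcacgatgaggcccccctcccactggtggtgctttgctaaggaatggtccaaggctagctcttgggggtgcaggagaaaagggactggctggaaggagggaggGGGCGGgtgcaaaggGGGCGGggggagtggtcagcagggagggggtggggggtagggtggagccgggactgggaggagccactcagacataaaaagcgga
Kcnq1ot1, chr7:143296548-143296797, minus strand: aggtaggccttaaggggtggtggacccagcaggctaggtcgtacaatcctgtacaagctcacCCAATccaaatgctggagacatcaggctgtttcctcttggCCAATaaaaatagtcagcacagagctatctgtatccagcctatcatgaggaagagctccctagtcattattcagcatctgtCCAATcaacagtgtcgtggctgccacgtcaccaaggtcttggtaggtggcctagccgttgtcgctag
Cd81, chr7:143052500-143052749, plus strand: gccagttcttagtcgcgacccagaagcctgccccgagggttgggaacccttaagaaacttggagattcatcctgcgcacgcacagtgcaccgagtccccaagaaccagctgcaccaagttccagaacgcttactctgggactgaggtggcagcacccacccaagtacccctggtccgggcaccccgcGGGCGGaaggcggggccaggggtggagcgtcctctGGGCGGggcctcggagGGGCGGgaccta
Motifs were searched on both strands. The Kcnq1ot1 window holds 3 matches to CCAAT, as does the Ascl2 window of the same domain, and the Igf2 window shown holds 1. Of all 32851 promoters of this length 2.8% hold 3 or more (33.8% hold any). The Kcnq1ot1 window holds none to GGGCGG, of which the Igf2 window shown has 2 and the Cd81 window 3. The other Igf2 windows hold 0, 0 and 1, and the Igf2 feature was not tied to any of the starts. Of all promoters 32.7% hold that motif and 8.5% hold 3 or more. TATAAA, found in 12.4% of all promoters, matched once, before Phlda2, and GCGTGGG, found in 4.3%, matched in none of the 10. The windows of Kcnq1ot1, Igf2 and Cd81 hold 5, 6 and 16 CG dinucleotides, against a median of 6 over all promoters, and the 10 windows range from 0 before Slc22a18 to 22 before another start of Igf2. These matches describe letters in a window and say nothing about binding.

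The deposited array intensities run from 0.288 to 19.02 and were read as log2 values from that range; the base is not stated in the labels, and every fold given here rests on it. The 40th percentile of an array lay between 4.988 and 5.023, and a feature was tested if it was above it on at least 2 arrays, which kept 42617 features. Below that level an array gives dim signal, and a difference against it is one of the deposited scale, not a ratio of transcript amounts. Arrays of a name correlated at 0.9896 to 0.9966 over all features and MEF with ieSC arrays at 0.926 to 0.9408. Of 19 tested embryonic Sertoli markers 10 were higher and 6 lower in ieSCs than in MEFs, with a mean level of 8.34 and 8.37 on the MEF arrays and 9.83 to 10.42 on the ieSC arrays. The defining Sertoli hormone gene Amh lay below the filter in every group (means of 4.10 to 4.74). Sox9, also a transgene, was lower (MEFs 11.18, MEF-derived ieSCs 7.96, TTF-derived ieSCs 7.48), while Wt1 rose by 5.60 ± 0.26. In the same order of groups, the transgene factors Gata4 and Dmrt1 had means of 7.585, 5.77 and 5.61, and of 8.275, 7.64 and 7.90. The factor Nr5a1 is not given here. Of 18 fibroblast markers 13 were lower and 0 higher, with a mean level of 15.43 and 15.48 on the MEF arrays and 10.04 to 11.58 on the ieSC arrays. Macrophage markers were bright on the MEF arrays too: over 14 macrophage markers the mean level of an array was 11.69 on both MEF arrays and 6.10 to 6.37 on the 8 ieSC arrays, 13 of the 14 were lower in ieSCs, and C1qa fell from 12.31 in MEFs to 4.03 (MEF-derived) and 3.99 (TTF-derived), below the filter level. Over 8 muscle markers, 6 of them lower, it was 8.72 and 8.83 on the MEF arrays and 6.22 to 7.47 on the ieSC arrays, and over 12 mesothelial markers, 9 higher and 1 lower, it was 9.73 and 9.74 against 12.06 to 13.51. Some markers called lower, among them Fap, C1qa and Actc1, passed the filter on the 2 MEF arrays alone and had to differ. The marker counts are therefore a description, and over all genes 27.3% were called higher and 24.4% lower. In bulk samples, fewer cells of a type and less RNA per cell cannot be told apart. The part of macrophage, muscle and mesothelial cells in the results that follow was not tested.

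In ieSCs as a whole, 7 of the 10 tested features were lower than in MEFs and 2 were higher. H19, Igf2 and Cdkn1c fell the most, Ascl2, Kcnq1ot1 and Slc22a18 fell by between 1.01 and 1.46 on the log2 scale, and Cd81 and Kcnq1 rose. Over all 42617 features, 20.0% were called lower and 24.6% higher. The median difference of the 10 features was -1.25, against 0.126 over all features. Cdkn1c passed the filter on the 2 MEF arrays alone and so had to differ. Kcnq1 passed on ieSC arrays alone, mainly MEF-derived ones. The counts are a description of the features that passed.

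H19, a noncoding RNA of fetal tissue that is usually silenced after birth, stood at 18.39 and 18.33 on the MEF arrays. In MEF-derived ieSCs it stood at 7.01 and 7.24 for name 1 and at 7.92 and 8.01 for name 2. In TTF-derived ieSCs it stood at 10.48 and 10.56 for name 1 and at 9.07 and 9.21 for name 2. The 3 groups did not overlap, with MEFs highest and MEF-derived ieSCs lowest, and all 8 ieSC arrays stayed above the filter level. The fall over all ieSCs was -9.67 ± 0.44 (limma adjusted p = 1.38e-07), a fold of 815, and 39 of the 42617 features (0.0915%), H19 among them, fell as much or more.

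Igf2, the growth factor, stood at 12.74 and 12.71 on the MEF arrays. In MEF-derived ieSCs its values were 8.38 and 8.34 for name 1 and 11.23 and 11.21 for name 2. TTF-derived ieSCs gave 6.79 and 6.81 for name 1 and 6.23 and 6.21 for name 2. Here too the groups did not overlap, but the order of the ieSCs was the opposite of that of H19, with TTF-derived ieSCs lowest. Over all ieSCs Igf2 fell by 4.58 ± 0.76 (adjusted p = 0.000843), a fold of 23.9, and 846 features (1.99%) fell as much or more.

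Cdkn1c encodes p57, an inhibitor of cyclin-dependent kinases that is expressed from the maternal copy. It stood at 14.47 and 14.35 on the MEF arrays, at 4.24, 4.47, 4.71 and 4.31 in MEF-derived and at 3.86, 3.97, 4.39 and 4.09 in TTF-derived ieSCs. Thus it was bright on the MEF arrays and below the filter level on all 8 ieSC arrays. The difference was -10.15 ± 0.21. It is given as a description, since the feature passed the filter through the MEF arrays alone and had to differ, and no fold is given against values at the dim end.

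Kcnq1ot1, the noncoding RNA of the domain, fell by about the same size on its 2 features. The brighter one stood at 9.57 and 9.51 in MEFs, at 8.18, 8.31, 8.09 and 7.88 in MEF-derived and at 8.24, 8.48, 8.47 and 8.52 in TTF-derived ieSCs. Every ieSC array lay below both MEF arrays, and the kinds of ieSC overlapped. The differences were -1.27 ± 0.15 (adjusted p = 0.000113) for the brighter and -1.23 ± 0.24 (adjusted p = 0.00202) for the dimmer feature, which lay between 4.63 and 5.60 in ieSCs, around the filter level, and at 6.29 and 6.42 in MEFs. Kcnq1ot1 lies within the span of Kcnq1, and the position of a feature in its gene is not used here.

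Kcnq1, the potassium channel gene that hosts Kcnq1ot1, stood at 4.60 and 4.19 in MEFs, at 6.12, 6.06, 6.83 and 6.75 in MEF-derived and at 4.66, 4.66, 4.39 and 5.10 in TTF-derived ieSCs. It was above the filter level on the 4 MEF-derived arrays, on 1 TTF-derived array and on 0 MEF arrays. It thus passed through the group where it is high, and its differences are set against values at the dim end and are given as a description. Over all ieSCs the difference was 1.18 ± 0.32, a mean over 2 kinds of ieSC. Set against MEFs alone, MEF-derived ieSCs were higher by 2.04 ± 0.35, while TTF-derived ieSCs differed by 0.31 ± 0.35 (adjusted p = 0.539) and overlapped with MEFs.

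Of the other genes around Kcnq1ot1, Ascl2, a transcription factor of the placental spongiotrophoblast, stood at 7.54 and 7.33 in MEFs and at 5.75 to 6.34 on the 8 ieSC arrays. It fell by 1.46 ± 0.20 (adjusted p = 0.000251), to means of 5.98 in both kinds of ieSC. Slc22a18, an organic cation transporter gene, stood at 11.85 and 11.90 in MEFs, at 10.995, 10.92, 10.11 and 10.24 in MEF-derived and at 11.67, 11.65, 10.65 and 10.70 in TTF-derived ieSCs. All ieSC arrays were below both MEF arrays, with name 2 lower than name 1 in each kind. Its fall of 1.01 ± 0.34 (adjusted p = 0.0364) was close to the threshold. Cd81, a tetraspanin of the cell surface, stood at 17.24 and 17.30 in MEFs and at 17.41 to 18.02 in ieSCs, and rose by 0.48 ± 0.12 (adjusted p = 0.00973). Tssc4, a gene next to Cd81, differed by 0.06 ± 0.18 (adjusted p = 0.812), with 13.75 and 13.64 in MEFs and 13.06 to 14.35 in ieSCs.

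Phlda2, a brake on placental growth, was below the filter level on all 10 arrays. It stood at 4.14 on both MEF arrays, at 3.49 to 3.84 in MEF-derived and at 3.51 to 4.01 in TTF-derived ieSCs, and no difference is read from values at that level.

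**Figure D1:**
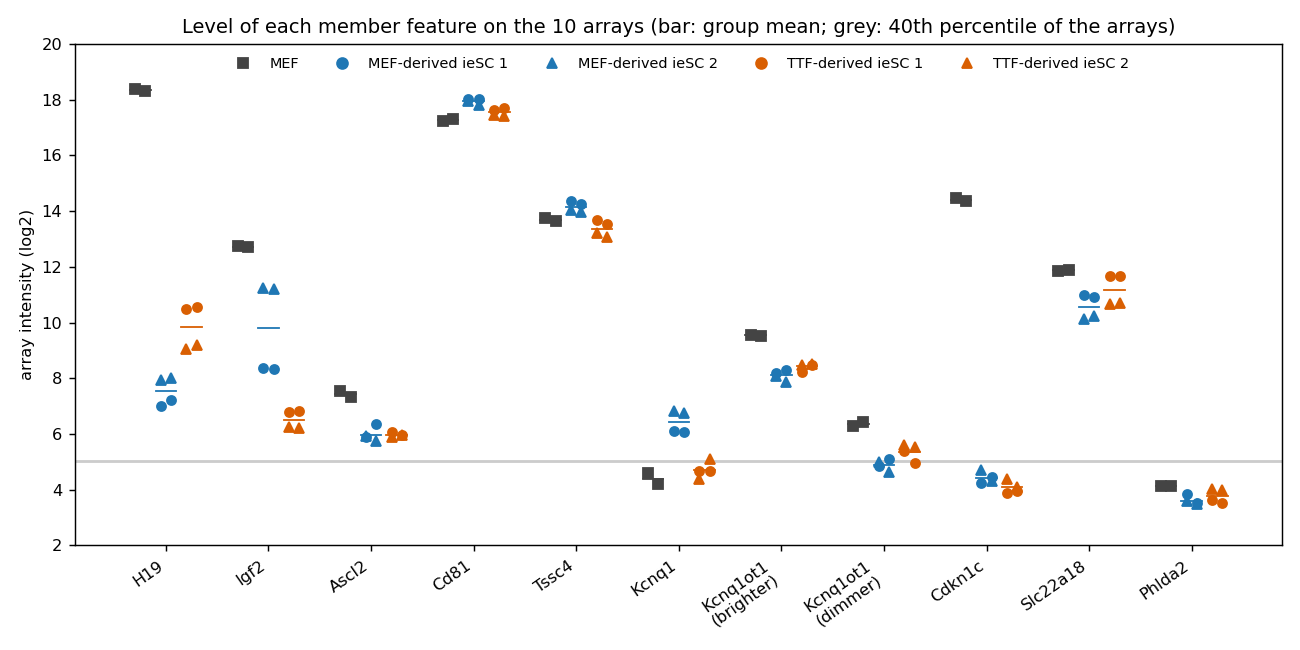
Log2 array intensity of the 11 features of the 10 genes on each of the 10 arrays, with MEFs in black, MEF-derived ieSCs in blue and TTF-derived ieSCs in orange; circles are name 1, triangles name 2, short bars group means, and the grey line the 40th percentile of the arrays. H19 and Cdkn1c fall from 18.36 and 14.41 in MEFs, Cdkn1c to below the grey line, the names of MEF-derived ieSCs lie apart for Igf2, and levels of different features are not to be set against each other.

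Some of these calls rest on few arrays. With the arrays of each name averaged before the fit, which leaves 5 values, Cd81 (adjusted p = 0.0965), Kcnq1 (0.0522) and Slc22a18 (0.206) were not called, and Kcnq1 was not called without MEF array b either (0.97 ± 0.36, adjusted p = 0.0621). Slc22a18 lost its call in 9 of 23 alternatives, with an adjusted p between 0.0508 and 0.206, among them each one without a MEF array and the one without MEF-derived name 2.

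The next comparison sets each kind of ieSC against the same 2 MEF arrays. In MEF-derived ieSCs, which started from the control's own cell kind, 7 of 10 features were lower and 2 higher. Of all features 21.0% were lower and 25.3% higher. The 7 include Cdkn1c, which passed the filter on the MEF arrays alone. The 2 include Kcnq1, which passed mainly on the MEF-derived arrays, so both counts are a description. H19 fell by 10.81 ± 0.48, Cdkn1c by 9.98 ± 0.23 and Igf2 by 2.94 ± 0.83 (adjusted p = 0.016). The Igf2 value is the mean of names that lie far apart: it was -1.51 ± 0.24 without name 1 and -4.37 ± 0.24 without name 2, called in both cases, and it was not called with averaged arrays (adjusted p = 0.149). Cd81 rose by 0.67 ± 0.13 (adjusted p = 0.00231, and 0.053 with averaged arrays). Slc22a18 fell by 1.31 ± 0.37 (adjusted p = 0.0163), and was not called with averaged arrays (0.147) or without name 2 (-0.92, adjusted p = 0.0848). Tssc4 differed by 0.46 ± 0.20 (adjusted p = 0.09), and was called with the same value without TTF-derived name 1 (adjusted p = 0.0256) or name 2 (0.0269).

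In TTF-derived ieSCs 6 of 10 features were lower than in MEFs and 0 higher, where 18.1% of all features were lower and 22.4% higher. The 6 include Cdkn1c, which passed the filter on the MEF arrays alone, so the count is a description. H19 fell by 8.53 ± 0.48, Igf2 by 6.22 ± 0.83 (adjusted p = 0.000244) and Cdkn1c by 10.33 ± 0.23. Ascl2 fell by 1.46 ± 0.22, and the brighter Kcnq1ot1 feature by 1.11 ± 0.17 and the dimmer by 1.00 ± 0.26. The 4 features not called were those of Cd81 (0.28 ± 0.13, adjusted p = 0.125), Tssc4 (-0.33 ± 0.20, 0.226), Kcnq1 and Slc22a18 (-0.70 ± 0.37, 0.169). Without name 2 Cd81 was called higher (0.40, adjusted p = 0.0386), and without name 1 Tssc4 (-0.57, adjusted p = 0.0226) and Slc22a18 (-1.20, adjusted p = 0.0165) were called lower.

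Between the kinds of ieSC the domains did not move as one. H19 was higher in TTF-derived than in MEF-derived ieSCs, Igf2, Cd81, Tssc4 and Kcnq1 were lower, and the other 5 features were not called. Over all features 16.8% were called higher and 17.0% lower in this comparison, beside 1 higher and 4 lower of the 10. With averaged arrays the counts were 0 and 1, and that 1 was Kcnq1, which passed the filter mainly through the MEF-derived arrays. The median of the 10 features was -0.18, against -0.022 over all.

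The largest of these differences lay within the H19-Igf2 domain, where the genes went opposite ways. H19 was higher in TTF-derived ieSCs by 2.28 ± 0.39 (adjusted p = 0.00167), a fold of 4.87, and its levels there, 9.07 to 10.56, did not overlap with the 7.01 to 8.01 of MEF-derived ieSCs. Igf2 was lower by 3.28 ± 0.68 (adjusted p = 0.00486), a fold of 9.70, with 6.21 to 6.81 against 8.34 to 11.23. H19 ranged from 1.59 to 2.97 and Igf2 from -4.71 to -1.85 when a name was left out, Igf2 standing at -1.85 ± 0.21 without MEF-derived name 2. With averaged arrays neither was called (adjusted p = 0.0754 and 0.111).

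In the Kcnq1 domain, Kcnq1 was lower in TTF-derived ieSCs by 1.74 ± 0.29, given as a description, since it passed the filter mainly through the MEF-derived arrays. Tssc4 was lower by 0.79 ± 0.16 (adjusted p = 0.00478) and Cd81 by 0.39 ± 0.11 (adjusted p = 0.0201). For each of these genes the groups did not overlap. The TTF-derived arrays had 4.39 to 5.10 for Kcnq1, 13.06 to 13.67 for Tssc4 and 17.41 to 17.71 for Cd81, and the MEF-derived arrays 6.06 to 6.83, 13.97 to 14.35 and 17.79 to 18.02. With averaged arrays Tssc4 (adjusted p = 0.0915) and Cd81 (0.147) were not called, and Cd81 was not called without MEF-derived name 1 (-0.32, 0.0972) or TTF-derived name 2 (-0.28, 0.0939).

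The genes not called between the kinds of ieSC were Ascl2, with a difference of -0.00 ± 0.18 (adjusted p = 0.993), Cdkn1c (-0.35 ± 0.19, 0.2), Slc22a18 (0.60 ± 0.30, 0.164) and Kcnq1ot1 (0.31 ± 0.14, 0.116, and 0.47 ± 0.21, 0.123). For Cdkn1c both groups were at the dim end. Kcnq1ot1 was called higher in TTF-derived ieSCs in 5 alternatives that left out a name or array or dropped the random block: its brighter feature without MEF-derived name 1 (0.44, adjusted p = 0.047) or without the block (0.0346), and its dimmer feature without the block (0.0321), without TTF-derived array 1b (0.59, 0.031) and without TTF-derived name 1 (0.66, 0.0195). Slc22a18 was called without TTF-derived name 2 (1.10, adjusted p = 0.0185).

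**Figure D2:**
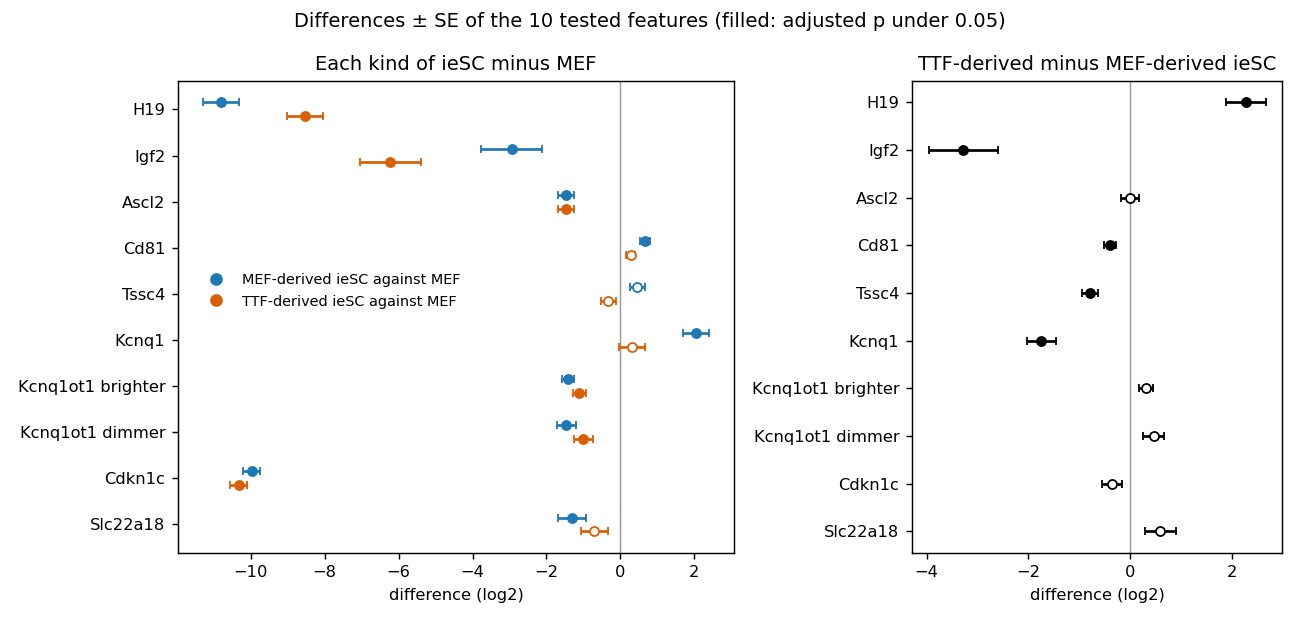
Log2 differences with standard errors of the 10 tested features: on the left each kind of ieSC minus MEF (blue MEF-derived, orange TTF-derived), on the right TTF-derived minus MEF-derived ieSCs; filled points have an adjusted p under 0.05. H19 and Cdkn1c stand at -8.53 or below in both kinds, and H19 (2.28) and Igf2 (-3.28) lie on opposite sides of 0 on the right.

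Names 1 and 2 of a kind of ieSC differed for some members by far more than the arrays of a name. Igf2 was higher by 2.86 for name 2 of MEF-derived ieSCs and differed by -0.58 in TTF-derived ieSCs, while its arrays of a name differed by 0.016 to 0.046. H19 differed by 0.84 between the names of MEF-derived and by -1.38 between those of TTF-derived ieSCs, with 0.059 to 0.22 between arrays of a name. So H19 and Igf2 were both higher for name 2 in MEF-derived ieSCs and both lower for name 2 in TTF-derived ieSCs. Slc22a18 differed by -0.78 and -0.99. The median absolute difference between names over the 42617 kept features was 0.166 for MEF-derived ieSCs, against 0.171 for the TTF-derived kind. Names have 2 arrays each that may be technical repeats, and no test of names was made.

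Along the chromosome, in RefSeq gene order, 7 other named genes lie between H19 and Phlda2, and 6 of them were tested. In all ieSCs against MEFs 1 of the 6 was higher and 1 lower, the other 4 were not called, and their median was 0.20. With 1 feature for each of 16726 named genes, 27.3% were called higher and 24.4% lower.

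Igf2os, an antisense transcript whose span overlaps that of Igf2, stood at 11.14 and 11.07 in MEFs, at 8.05, 8.04, 9.06 and 8.87 in MEF-derived and at 6.61, 6.73, 6.33 and 5.92 in TTF-derived ieSCs. The order of the groups and, in each kind of ieSC, of the names was that of Igf2. It fell by 3.65 ± 0.32 (adjusted p = 1.23e-05) and was lower in TTF-derived than in MEF-derived ieSCs by 2.11 ± 0.29 (adjusted p = 0.000458). How the features of overlapping genes share signal is not known here.

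Tspan32, a tetraspanin gene of blood cells that lies between Ascl2 and Cd81, went the other way. Its brightest feature stood at 7.73 and 7.60 in MEFs, at 12.55, 12.52, 11.51 and 11.78 in MEF-derived and at 9.60, 9.67, 8.78 and 8.76 in TTF-derived ieSCs. It rose by 2.98 ± 0.34 (adjusted p = 7.7e-05), its 3 features ranged from 2.54 to 3.24, and it was lower in TTF-derived than in MEF-derived ieSCs by 2.89 ± 0.31 (adjusted p = 0.000103). Set against MEFs, MEF-derived ieSCs differed by 4.42 ± 0.38 and TTF-derived ieSCs by 1.53 ± 0.38.

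Ins2, an insulin gene next to Igf2os, stood at 7.52 and 7.03 in MEFs and at 8.67 to 9.45 in MEF-derived ieSCs, and in TTF-derived ieSCs at 9.56 and 9.70 for name 1 but 7.34 and 7.42 for name 2. It was not called (1.51 ± 0.63, adjusted p = 0.0802), and it was called higher without TTF-derived name 2 (2.07, adjusted p = 0.000481) or name 1 (0.95, adjusted p = 0.0181). Th, the tyrosine hydroxylase gene, differed by 0.29 ± 0.17, the taste channel gene Trpm5 by -0.52 ± 0.34 and the noncoding R74862 by 0.11 ± 0.23, none of them called. R74862 was lower in TTF-derived than in MEF-derived ieSCs by 0.80 ± 0.21 (adjusted p = 0.0149), a call lost with averaged arrays (adjusted p = 0.119), and without MEF-derived name 1 (0.0599), MEF-derived name 2 (0.0526) or TTF-derived name 2 (-0.46, 0.0533). Gm6471 was below the filter level on all arrays.

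Of the 20 nearest tested genes outside the interval, 10 on each side, 7 were higher and 4 lower in ieSCs, with a median of 0.11. The largest differences were those of Lsp1, a leukocyte protein gene, which fell by 3.46 ± 0.39 (adjusted p = 6.19e-05), of the synaptotagmin gene Syt8, which rose by 1.96 ± 0.15 (adjusted p = 5.57e-06), and of Tnnt3, a troponin gene of fast muscle, which fell by 1.61 ± 0.21 (adjusted p = 0.000211) on its brighter and by 2.54 ± 0.29 on its other feature. All 3 lie before H19.

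**Figure D3:**
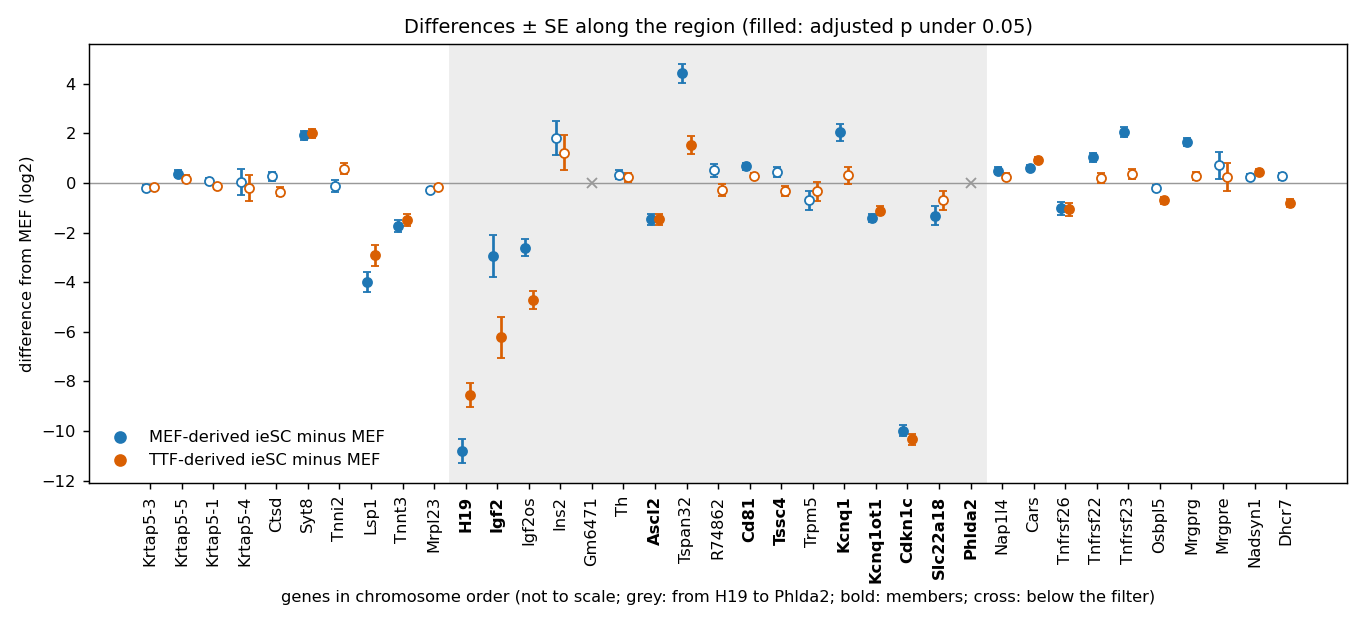
Log2 differences with standard errors of MEF-derived (blue) and TTF-derived (orange) ieSCs from MEFs for the genes in chromosome order, not to scale, with the stretch from H19 to Phlda2 in grey and the 10 genes in bold; filled points have an adjusted p under 0.05 and crosses mark genes below the filter. Beside the large falls (H19 at -10.81 and -8.53, Cdkn1c at -9.98 and -10.33) the grey stretch holds genes near 0, such as Th and Tssc4, and Tspan32 well above it.

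**Figure D4:**
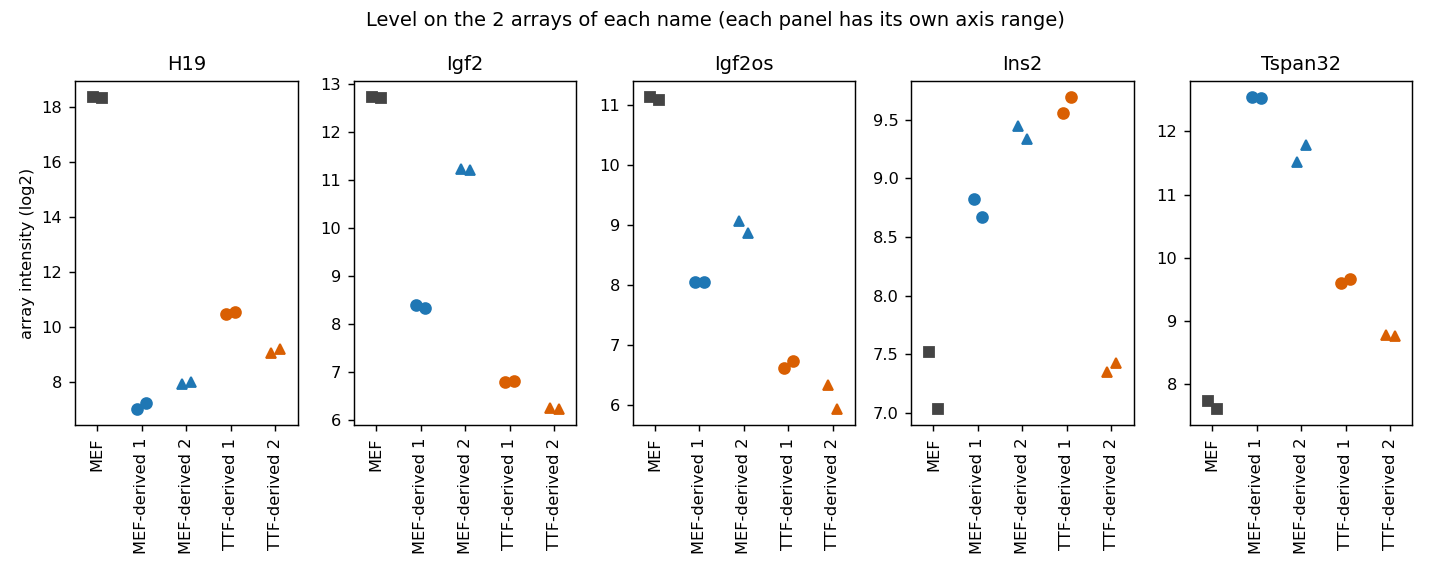
Log2 array intensity of H19, Igf2, Igf2os, Ins2 and Tspan32 on the 2 arrays of each of the 5 names, each panel with its own axis range that does not start at 0. The arrays of a name lie close together, while Igf2 differs by 2.86 between the names of MEF-derived ieSCs and Ins2 by -2.24 between those of TTF-derived ieSCs.

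Igf2 acts through the receptors Igf1r and Insr, is cleared by Igf2r, and is held by binding proteins that proteases such as Pappa cut. Of 17 tested genes of this axis, 13 were lower and 2 higher in ieSCs than in MEFs, with a median of -2.0 (0.086 over all genes), beside a background of 24.4% lower and 27.3% higher. The binding protein gene Igfbp3 fell by 11.05 ± 0.42, from 14.96 in MEFs to 3.69 and 4.12 in MEF-derived and TTF-derived ieSCs. Both ieSC means lie below the filter level, so this difference and the count that includes it are given as a description. Igfbp4 fell by 6.17 ± 0.37 and Igf2bp3, which encodes an RNA-binding protein named for Igf2 mRNA, by 5.34 ± 0.24. The receptors were named after their values were seen: Igf1r fell by 1.26 ± 0.12 (adjusted p = 1.63e-05) and Igf2r, itself an imprinted gene, by 0.67 ± 0.20 (adjusted p = 0.0198), while Insr was not called (-0.46, adjusted p = 0.0614). For Igf2r the kinds of ieSC differed: TTF-derived ieSCs, at 13.18 against 14.39 in MEFs, were lower by 1.21 ± 0.22 (adjusted p = 0.00153), while MEF-derived ieSCs, at 14.25, were not called (-0.13 ± 0.22, adjusted p = 0.657) and overlapped with MEFs. The 2 genes that rose were Igfbp6 (3.28) and Igf2bp1 (0.87). Between the kinds of ieSC 4 were higher and 3 lower in TTF-derived cells, beside 17.8% higher and 20.7% lower over all genes. Pappa was lower by 2.70 ± 0.62 (adjusted p = 0.00832) and the related growth factor gene Igf1 by 1.76 ± 0.38 (adjusted p = 0.00582). Both calls were lost with averaged arrays (adjusted p = 0.133 for Pappa and 0.117 for Igf1), that of Pappa also without MEF-derived name 1 (-1.96, adjusted p = 0.0809) and that of Igf1 without TTF-derived name 2 (-1.34, adjusted p = 0.0566).

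Among 24 tested factors that read or keep imprints and silent chromatin, 6 were higher and 6 lower in ieSCs, and 12 were not called, with a median of -0.06; over all genes 27.3% were higher and 24.4% lower, so both counts are near the background. Ctcf, whose product binds the control region of H19 and Igf2, differed by -0.06 ± 0.14 (adjusted p = 0.752), with means between 11.90 (MEF-derived) and 12.26 (TTF-derived) and 12.15 in MEFs; it is named for its role, after its values were seen. Uhrf1, which brings the maintenance methyltransferase to replicated DNA, fell by 1.46 ± 0.26 (adjusted p = 0.00125), Tet1, which oxidises methylated cytosine, by 1.40 ± 0.18, and the Polycomb gene Rnf2 by 0.97 ± 0.11. The fall of Uhrf1 came from MEF-derived ieSCs, at 8.74 against 12.11 in MEFs and 12.55 in TTF-derived ieSCs. Between the kinds of ieSC 12 of the 24 were higher and 3 lower in TTF-derived cells, beside 17.8% and 20.7% over all genes. Higher were Uhrf1 by 3.81 ± 0.23 (adjusted p = 3.16e-06) and the chromatin remodeller Hells by 2.14 ± 0.20 (adjusted p = 4.72e-05). DNA methylation was not measured on these arrays.

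Other imprinted genes, outside these domains, were lower in ieSCs in 17 of 24 tested and higher in 1, with a median of -4.22, beside 24.4% lower and 27.3% higher over all genes. Of the 24, 4 genes (Meg3, Nap1l5, Snrpn and Zim1) passed the filter on the 2 MEF arrays alone and had to differ, so the count is a description. Meg3, the noncoding RNA of the Dlk1-Dio3 domain, fell by 13.03 ± 0.31, Dlk1 by 10.66 ± 0.45 and Mirg of the same domain by 8.71 ± 0.15. The ieSC means of Meg3 (4.39 MEF-derived, 4.21 TTF-derived) lay below the filter level and those of Dlk1 (4.86 and 5.09) around it, so these differences are set against dim values. Between the kinds of ieSC 5 were higher and 4 lower, near the 17.8% and 20.7% over all genes. Mest was lower in TTF-derived ieSCs by 8.41 ± 0.28, at 4.48 against 12.88 in MEF-derived ieSCs and 15.87 in MEFs. Its TTF-derived mean lies below the filter level, so this difference is given as a description. Plagl1, a zinc finger factor gene, was higher by 8.0 ± 0.34 (adjusted p = 3.19e-07), at 13.38 against 5.38, with 16.88 in MEFs. Thus Plagl1, like H19, was highest in MEFs and lowest in MEF-derived ieSCs, and Mest, like Igf2, highest in MEFs and lowest in TTF-derived ieSCs.

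Of 7 tested genes that act with or beside Cdkn1c at the start of the cell cycle, 3 were lower and 0 higher in ieSCs, with a median of -0.28, beside 24.4% and 27.3% over all genes. Ccna2 fell by 2.24 ± 0.17, Ccne1 by 1.84 ± 0.13 and their kinase gene Cdk2 by 0.62 ± 0.19 (adjusted p = 0.0251, and 0.128 with averaged arrays and 0.0957 without MEF array b). Between the kinds of ieSC 5 were higher and 2 lower in TTF-derived cells, beside 17.8% and 20.7%. Ccna2 was higher by 5.58 ± 0.15, at 12.44 against 6.85 in MEF-derived ieSCs and 11.88 in MEFs. The fall of Ccna2 over all ieSCs thus came from the MEF-derived kind. Cdkn1a, the inhibitor p21, was lower by 1.99 ± 0.35 (adjusted p = 0.00184, and 0.0736 with averaged arrays), at 15.02 against 17.01, with 15.42 in MEFs. Cdkn1c itself was at the dim end in both kinds.

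By the root mean square (RMS) difference over the 10 arrays, each gene centred on its own mean, the genes most like H19 were Bmp4 (0.591), a growth factor of the BMP family, the integrin gene Itga11 (0.718) and Cd302 (0.788). Bmp4 stood at 15.91 in MEFs, and MEF-derived ieSCs, at 5.71, were again below TTF-derived ieSCs, at 8.69. Most like Igf2 were Moxd1 (0.632), the collagen gene Col12a1 (0.867) and Igf2os (0.893), and Moxd1 stood at 12.42, 8.63 and 5.50. Cdkn1c was followed most closely by Ms4a7 (0.295), a gene of macrophages, Crabp1 (0.297), which binds retinoic acid, and Mfap4 (0.321), of matrix microfibrils. These 3 stood at 13.83 to 16.53 in MEFs and at 3.52 to 6.50 in ieSCs. The ieSC means of Ms4a7, Crabp1 and Cdkn1c itself lay below the filter level, so their likeness rests on dim values and is a description. The ieSC means of Cd302, listed for H19, also lay below that level. Most like the brighter feature of Kcnq1ot1 were Mzf1 (0.102), Snx8 (0.104) and Stat2 (0.110). The 10 arrays share 5 names, and for H19, Igf2 and Cdkn1c most of the likeness lies in the step from MEFs to ieSCs. Phlda2, below the filter, was given no such genes.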

How the data were processed

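The authors deposited normalized array intensity for 62976 features on 10 arrays, read as log2 from its range. Per the submitters' processing notes limma was used, with no version given. Above the 40th percentile the sorted deposited log2 columns differ by at most 0.0379, as quantile-normalized columns do, so a change in total mRNA per cell cannot be seen. The method of background correction was not given in the sources used here, and the array number limits the precision (median standard error 0.177 for all ieSCs against MEFs, 0.158 between the kinds of ieSC).

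Samples were grouped by their source names. The platform annotation names 1 gene for 31465 features, several for 0 and none for 31511. Symbols were updated by accession through RefSeq (GRCm38.p6; 29036 features matched, 2933 newer symbols), which was otherwise used for gene order, promoters and microRNAs; the H19 feature was named by its symbol alone. Of the 42617 kept features, all were fitted with limma 3.58.1 (R 4.3.3, statmod 1.5.0 for the block): 1 mean for each of 3 groups, the 5 names as a random block (consensus correlation 0.468), two-sided moderated tests, Benjamini-Hochberg adjustment over all kept features and a threshold of 0.05. The fit, but not the other steps, was also run on simulated data.

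The 10 genes and the lists of related genes were chosen with earlier results of these data known. Values are given for each feature of the 10 genes and each named gene between H19 and Phlda2, and for the 3 largest differences outside. From each of the 4 lists of related genes, values are given for the 3 largest called differences against MEFs and the 2 largest between the kinds of ieSC, by the brightest kept feature. The marker lists are given by counts and mean levels in place of these values. Wt1, C1qa, Amh, Sox9, Gata4 and Dmrt1 were named after their values were seen. Likeness was computed for H19, Igf2, Cdkn1c and Kcnq1ot1; Phlda2, also in the rule, was below the filter. Alternatives changed the filter, the features, the block, the array order, the scaling and the variance prior, or left out an array or a name.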

Additional observations from a re-analysis of the deposited data

Results flagged for a closer look

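In a look at each of the 11 features in each ieSC group, 22 groups of 4 arrays in all, 1 held an array far from the others: for the brighter Kcnq1ot1 feature in TTF-derived ieSCs, array 1a at 8.24 lay below the 8.47 to 8.52 of the other arrays, a gap of 0.833 of the group's range, above Dixon's critical value for 4 arrays. For independent values chance alone gives about 1 such group in 20. The arrays here share names in pairs, so the rate for these groups is not known.

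For 5 of the 10 tested features the effect against MEFs differed between the kinds of ieSC by the test of TTF-derived against MEF-derived ieSCs. Over all features 16.8% were called higher and 17.0% lower in this comparison. With averaged arrays 0 of the members' features were called higher and 1 lower, that of Kcnq1. The differences were 2.28 for H19, -3.28 for Igf2, -0.39 for Cd81, -0.79 for Tssc4 and -1.74 for Kcnq1 on the log2 scale, that of Kcnq1 as a description.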

How the results depend on the processing

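Of 918 values of the members' differences under alternatives, 876 kept their direction and their side of the threshold, 22 lost the call, 12 gained one and 8 changed sign, none of them called. For other named genes the numbers were 1332, 15, 3 and 3 of 1353. H19, Ascl2 and Kcnq1ot1 against MEFs kept their calls in every alternative run for them: H19 ranged from -10.02 to -9.33, Ascl2 from -1.56 to -1.36 and the brighter Kcnq1ot1 feature from -1.33 to -1.20. Igf2 ranged from -5.29 to -3.86 (highest adjusted p = 0.0497).

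Counts of member features called higher moved as follows. Against MEFs, all ieSCs had 1 under the 60th percentile filter, 0 with averaged arrays and 1 to 2 when an array or name was left out, and MEF-derived ieSCs had 1 under each of these filter and averaging settings. TTF-derived ieSCs had 0 to 1 when an array or name was left out. Between the kinds of ieSC there were 3 higher with no random block and 0 with averaged arrays. There were 1 to 2 when an array or name was left out. With averaged arrays 1 was lower, that of Kcnq1. With all features 2833 were higher and 2443 lower between the kinds of ieSC with averaged arrays, against 7168 and 7246 in the reported fit. The stricter filter tests fewer features and Kcnq1 and the dimmer Kcnq1ot1 feature are not among them; averaging leaves 2 residual degrees of freedom.

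Signs changed on leaving out arrays or names for differences near 0: Ascl2 between the kinds of ieSC ranged from -0.13 to 0.13, Tssc4 in all ieSCs from -0.06 to 0.18, R74862 in all ieSCs from -0.06 to 0.28, and Ins2 between the kinds of ieSC from -1.69 to 0.56. The replicate block, the number 1 or 2 of a name as a fixed term over the 8 ieSC arrays, gave 2 features higher, with Slc22a18 at 0.60 (adjusted p = 0.000538), and 9661 features higher and 9968 lower in all. The deviations of names between origins correlated at 0.273 over the kept features. With 2 pairs and no label that ties equal numbers together, whether the numbers pair the names was not settled. The dim end of the arrays limits Cdkn1c, Kcnq1 and Phlda2.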
